A study of Mus musculus with 16 samples.

Results

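T-cell co-stimulators and adhesion ligands are the surface molecules with which a macrophage or dendritic cell touches a T cell and signals to it. The 9 genes described here are Cd40, Cd80, Cd86, Icosl, Cd274, Pdcd1lg2, Icam1, Vcam1 and Cd83, out of 18820 genes measured. They were taken as a named list, through array probe sets that name a single gene, with the brightest probe set used where a gene has several. All 9 were found, and Cd80 alone had 2 probe sets. RAW264.7 is a mouse macrophage cell line. Its RNA was profiled on 16 whole-transcript arrays after 24 h in 4 conditions of 4 arrays each. The control cells had vehicle, ethanol at 0.1% v/v, and the DHA5HT cells had 1 µM docosahexaenoyl serotonin, in which serotonin is joined to docosahexaenoic acid, a fish oil fatty acid. The LPS cells had lipopolysaccharide, a bacterial cell wall component, at 1 µg/ml with vehicle, per the treatment protocol (the labels name the solvent for the control arrays alone), and the LPS+DHA5HT cells had both agents at these doses. All groups are cultures of this single line, the labels name no other cells, and the arrays measure RNA and not protein at the surface.

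A T cell that recognises antigen needs further signals from the presenting cell. CD80 and CD86 bind CD28 to activate the T cell and CTLA-4 to restrain it, ICOS ligand binds ICOS, and CD40 is a receptor through which the T cell's CD40 ligand activates the presenting cell in return. The programmed death ligands encoded by Cd274 and Pdcd1lg2 bind PDCD1 and dampen T cells, whereas ICAM1 and VCAM1 are ligands of leukocyte integrins that hold the cells together. CD83 is a surface marker of mature dendritic cells. Resting macrophages carry low levels of several of these molecules, and bacterial products are known to raise them through NF-kB and interferon signalling.

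RefSeq promoter sequences (build GRCm38.p6, 250 bases upstream of each start site) were at hand for 5 of the 9 genes, Cd80, Icosl, Cd274, Pdcd1lg2 and Icam1. They were searched on both strands for the NF-kB consensus, which 3.9% of 32851 promoters of this length hold, for AANNGAAA, the core bound by interferon regulatory factors (21.3%), and for TGANTCA, an AP-1 motif (6.75%). The following stretches are shown because Cd274 and Pdcd1lg2 lie on the same chromosome and both hold AANNGAAA, while Cd80 holds the AP-1 motif; capitals mark the matched bases.
Cd274, chr19:29367243-29367290, plus strand: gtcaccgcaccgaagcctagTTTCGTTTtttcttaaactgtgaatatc
Pdcd1lg2, chr19:29410669-29410911, plus strand: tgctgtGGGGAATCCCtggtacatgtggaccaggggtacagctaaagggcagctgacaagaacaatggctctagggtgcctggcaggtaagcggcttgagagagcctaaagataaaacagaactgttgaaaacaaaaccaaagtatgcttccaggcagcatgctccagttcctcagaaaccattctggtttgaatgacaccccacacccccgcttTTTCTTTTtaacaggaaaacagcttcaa
Cd80, chr16:38458871-38458917, plus strand: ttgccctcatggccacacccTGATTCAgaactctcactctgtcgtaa
In Cd274 the AANNGAAA match is on the minus strand, 175 to 168 bases upstream of the start used. That start lies 5331 bases inside the annotated gene, so the stretch is within the gene as annotated. In Pdcd1lg2 the first capitals, 244 to 235 bases upstream, match the NF-kB consensus and the second, 35 to 28 bases upstream, match AANNGAAA on the minus strand. The AP-1 match in Cd80 spans 42 to 36 bases upstream of a start that lies 1503 bases inside the annotated gene. None of the 3 motifs was found in these windows of Icam1 or Icosl. Only exact matches to each pattern were counted, so the lack of a match does not show that a binding site is absent. These matches describe letters only. As the values below show, Cd274 rose with LPS while Pdcd1lg2 stayed below the background level.

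Intensities and differences are on the log2 scale. Errors after ± are SDs (n = 4), and fitted changes carry an SE or a 95% confidence interval (CI). Counts of genes at an unadjusted p under 0.05 (limma) are given without the share of all genes, so they show no tendency of a list. The median of 18 markers of T cells, B cells and epithelial cells over the 16 arrays, 3.63, serves as the background level, and a gene whose group mean lies below it is called not above background. Apart from Cd28, these markers had group means from 2.70 to 5.45. Of 11 macrophage markers, 10 lay above background in control cells, with Csf1r at 11.87, Cd68 at 12.57 and Lyz2 at 12.21. Their mean was 9.42 to 9.59 on control and 9.40 to 9.50 on DHA5HT arrays, and 10.53 to 10.68 with LPS and 10.38 to 10.55 with both. With DHA5HT alone 1 of the 11 was called lower (limma), where 0.478% of all genes were. Fcgr1 read 9.18 in control and 8.72 in DHA5HT cells. With LPS 6 of the 11 were called higher, among them Marco (5.90 to 11.32) and Adgre1 (6.93 to 10.87), and 2 lower. Of all genes 12.6% were called higher with LPS and 15.8% lower. Marco was lower with DHA5HT in LPS-treated cells (−0.96, limma adjusted p = 0.02138), where 0.972% of all genes were called lower. The part of these shifts in the results was not tested. Of 9 dendritic cell markers 4 lay above background in control cells, namely Zbtb46 (4.62), Ccr7 (5.05), Batf3 (5.67) and Siglech (3.80), while Flt3 (3.29), Clec9a (2.78), Xcr1 (3.56), Cd209a (3.18) and Fscn1 (3.54) did not. Zbtb46, Ccr7 and Siglech lay within the range of the background markers, 2.70 to 5.45, and Batf3 lay just above it. The mean of the dendritic cell markers was 3.88 to 4.06 on control arrays, 3.91 to 4.04 with DHA5HT, 3.89 to 3.97 with LPS and 3.86 to 3.97 with both. None of them changed with LPS or with DHA5HT in LPS-treated cells (limma; 0 also at an unadjusted p under 0.05). The T cell marker mean was 4.32 to 4.40 on control and 4.07 to 4.18 on LPS arrays, a shift carried by Cd28 (8.71 to 6.97); the median change of the 8 T cell markers was 0.01, and Cd3d (3.98 in each) and Cd3e (3.68 and 3.67) moved little. In such bulk samples fewer expressing cells and less RNA per cell cannot be told apart.

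Among the 16 arrays, LPS+DHA5HT array 4 stood apart on the second principal component, at −22.42 against −9.36 to 10.02 for the others. LPS+DHA5HT array 1 has a title that names both agents and a treatment label that names DHA5HT alone, and the title was followed. Over the 5 listed genes that LPS raised more than 2-fold, its median position was 83.9% of the way from the control mean to the LPS mean. The other LPS+DHA5HT arrays stood at 78.6% to 88.2% and the DHA5HT arrays at −6.26% to −4.51%. The results on the 9 genes that use the LPS+DHA5HT group are also given without each of these arrays, except for genes below background. Whether the 4 arrays of a group stand for separate cultures is not in the labels. The p-values therefore reflect the spread between these samples alone, which may be technical.

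LPS against control asks how the bacterial stimulus moved these genes. All 4 activating genes (Cd40, Cd80, Cd86 and Icosl) rose 3.07-fold to 5.43-fold, the inhibitory Cd274 rose 7.15-fold and the adhesion ligand Icam1 rose 1.29-fold, while Cd83 fell and Pdcd1lg2 and Vcam1 were not above background. Thus 6 of the 9 were called higher and 1 lower (limma, adjusted p under 0.05), where 12.6% of all 18820 genes were called higher and 15.8% lower. For the same 6 genes every LPS array lay above every control array, which held for 13.7% of all genes. The median change over the 9 was 1.62, against 0.004 over all genes.

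Of the activating genes, Cd80 moved most. Its control arrays 1 to 4 read 7.60, 7.71, 7.18 and 7.34, and its LPS arrays 9.92, 10.16, 9.65 and 9.88. The groups lay far apart, and the increase was 2.44 (SE 0.13, CI 2.16 to 2.72, adjusted p = 2.138e-10). Cd40, the receptor of the T cell's CD40 ligand, read 6.39, 6.76, 6.68 and 6.77 in control cells and 8.69, 8.84, 8.86 and 8.70 with LPS. This 4.36-fold rise (2.12, CI 1.92 to 2.32, adjusted p = 1.5e-11) had little spread among the LPS arrays (SD 0.09). Cd86, the other CD28 ligand, read 8.41, 8.23, 8.17 and 8.39 in control cells and 10.35, 10.40, 10.34 and 10.22 with LPS. Its increase of 2.02 (4.06-fold, CI 1.88 to 2.16) had the smallest adjusted p of the list, 2.481e-13. Icosl, the ligand of ICOS, went from 8.73, 8.39, 8.72 and 8.65 to 10.22, 10.23, 10.27 and 10.25. The LPS arrays lay close together (SD 0.02), and the increase was 1.62 (3.07-fold, adjusted p = 4.151e-10).

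The inhibitory ligands went separate ways. Cd274 read 8.14, 8.35, 7.83 and 8.07 in control cells and 10.68, 11.16, 10.83 and 11.07 with LPS. At 2.84 (SE 0.14, CI 2.54 to 3.14, adjusted p = 6.712e-11) this was the largest increase of the 9, rank 67 among increases over all genes; Cd80 was rank 85, Cd40 rank 109, Cd86 rank 114 and Icosl rank 178. Pdcd1lg2, the second ligand of PDCD1, ranged from 3.23 to 3.44 on control arrays and from 3.20 to 3.45 on LPS arrays. Its change was −0.07 (CI −0.24 to 0.10, adjusted p = 0.6048), between values that were not above background.

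Icam1, the ligand of the integrin made of Itgal and Itgb2, was well above background before LPS. It read 9.41, 9.46, 9.53 and 9.58 in control cells and 9.68, 9.86, 9.89 and 9.99 with LPS, so that the groups adjoined without overlap. The increase was 0.36 (SE 0.08, CI 0.19 to 0.53, adjusted p = 0.002009), rank 1411. Vcam1, the ligand of the integrin of Itga4 and Itgb1, ranged from 2.99 to 3.39 without LPS and from 3.03 to 3.19 with it, below background on every array. Its change was −0.06 (CI −0.23 to 0.11, adjusted p = 0.6693). Cd83 read 4.03, 4.03, 3.88 and 3.98 in control cells and 3.82, 3.54, 3.71 and 3.28 with LPS. All LPS arrays were lower, and their mean, 3.59, was below background. With the background level in place of that mean the decrease was 1.27-fold (measured difference −0.39, SE 0.12, CI −0.65 to −0.14, limma adjusted p = 0.02087). Cd83 lay within the range of markers of cell types that a macrophage line should lack, and it no longer passed without control array 1 (adjusted p = 0.05219), control array 2 (0.05008), LPS array 2 (0.05186) or LPS array 4 (−0.29, 0.08539). The other 6 calls were kept under every setting tried.

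**Figure D1:**
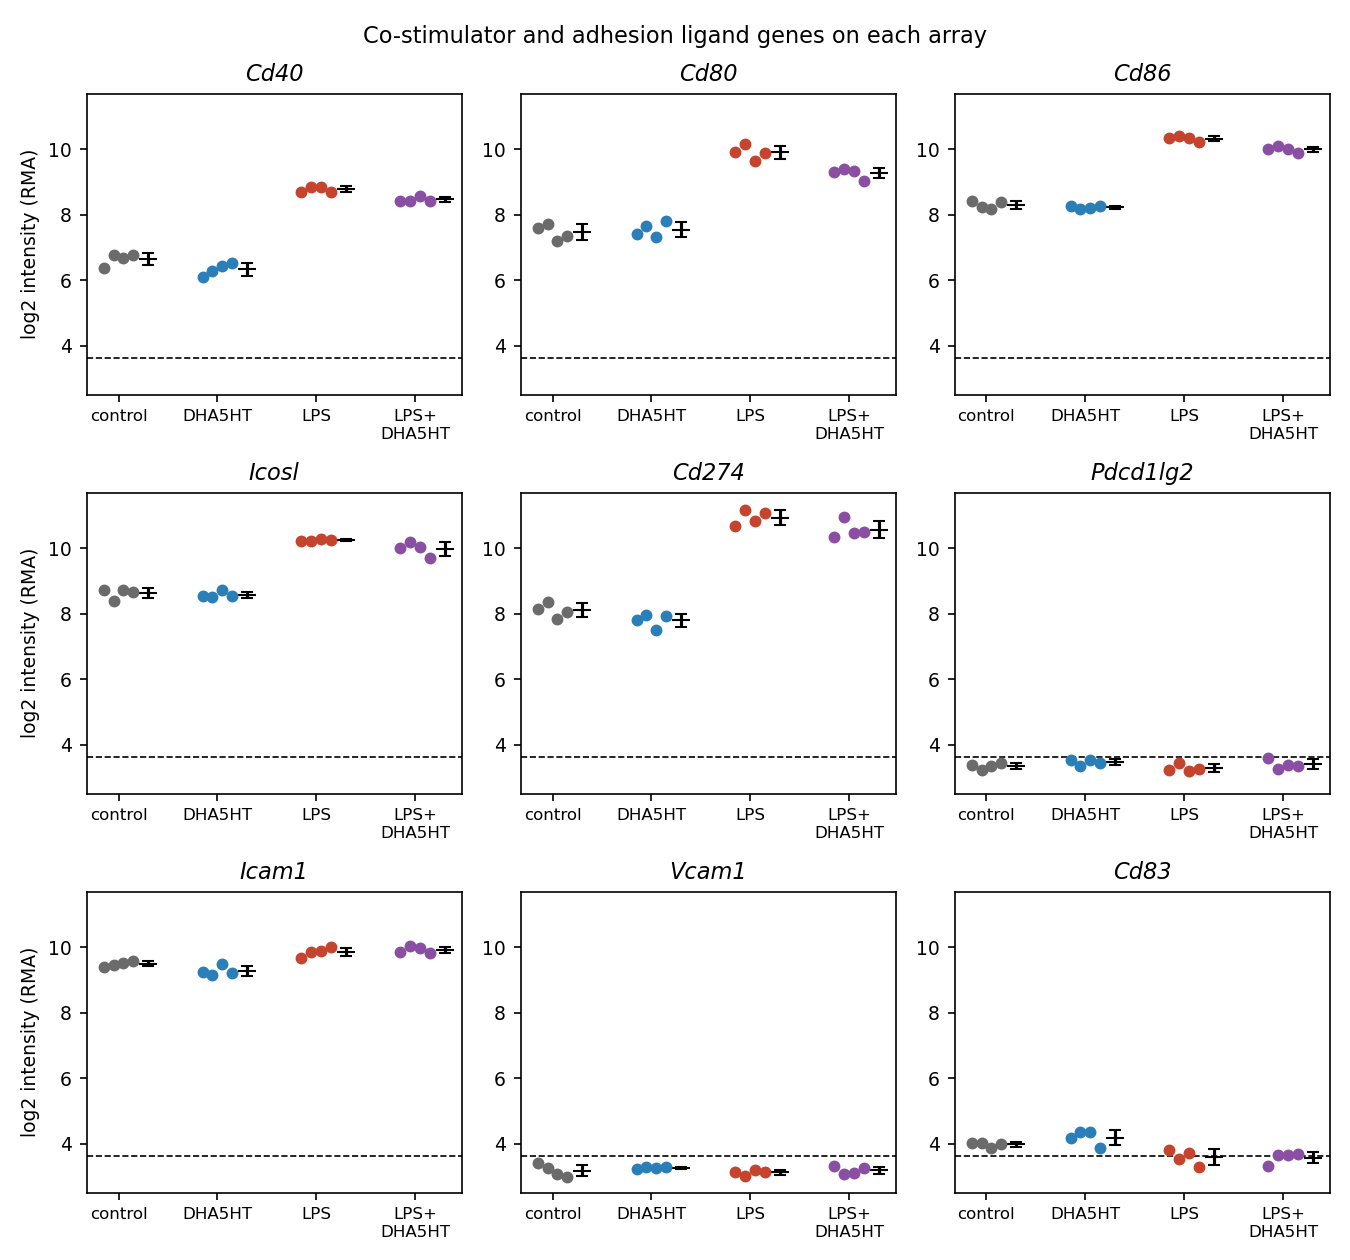
Log2 intensity (RMA, vertical axis) of each of the 9 genes on the 4 arrays of each group (points, arrays 1 to 4 from left to right), with the group mean ± SD beside them; the dashed line is the background level of 3.63. Cd40, Cd80, Cd86, Icosl and Cd274 form a low pair of groups without LPS and a high pair with it, Icam1 moves little, and Pdcd1lg2, Vcam1 and Cd83 sit near the line.

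LPS+DHA5HT against LPS is the comparison stated in the study's design, DHA5HT against vehicle in LPS-treated cells. The CD28 ligands Cd80 and Cd86 were lower with DHA5HT, by 1.55-fold and 1.25-fold, and no gene of the 9 was called higher. Cd40 and Icosl also read lower on all 4 LPS+DHA5HT arrays than on any LPS array, but did not pass the threshold. So 2 of the 9 genes were called lower, where 0.972% of all genes were called lower and 0.818% higher. Arrays of the same number deviate together in these 2 groups, and with the number as a block 4 of the 9 were called lower, Cd40 and Cd274 in addition, where 1.72% of all genes were called lower and 1.72% higher. For 4 of the 9, Cd40, Cd80, Cd86 and Icosl, the groups did not overlap in this direction, as for 3.91% of all genes. The median change over the 9 was −0.26, against 0.002 over all genes. The LPS arrays enter this comparison and the preceding one, so the 2 sets of changes are not independent.

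Cd80 read 9.29, 9.40, 9.33 and 9.04 on the LPS+DHA5HT arrays, against 9.65 to 10.16 with LPS. The difference was −0.64 (SE 0.13, CI −0.92 to −0.35, adjusted p = 0.02337). The other Cd80 probe set, of means 5.32 ± 0.09 in control, 5.42 ± 0.30 in DHA5HT, 7.45 ± 0.17 in LPS and 6.75 ± 0.13 in LPS+DHA5HT cells, gave −0.70 (SE 0.13). With the adjustment over all 35556 probe sets its adjusted p was 0.03093, and that of the main Cd80 probe set was 0.07072. Cd86 read 10.00, 10.09, 10.01 and 9.89 with both agents, all below the lowest LPS array at 10.22. It was lower by a smaller amount with less spread, −0.33 (SE 0.07, CI −0.47 to −0.19, adjusted p = 0.01784). The Cd80 call was lost without LPS array 1 (−0.63, adjusted p = 0.05302), LPS array 2 (−0.55, 0.08207), LPS array 4 (−0.64, 0.05479), LPS+DHA5HT array 1 (−0.64, 0.05217) or LPS+DHA5HT array 4 (−0.56, 0.07365). The Cd86 call was lost without LPS array 2 (−0.30, adjusted p = 0.06732), without LPS+DHA5HT array 4 (−0.29, 0.05944) or when only the compared arrays were fitted (0.06999), and kept without LPS+DHA5HT array 1 (−0.33, 0.04415). Thus 0 of the 9 genes were called without array 4 and 1 without array 1. With the replicate block the adjusted p was 0.007971 for Cd80 and 0.01631 for Cd86. The blocked Cd80 call was kept with each of the 8 compared arrays left out (adjusted p of 0.003997 to 0.03312), and the blocked Cd86 call was lost without LPS array 2, LPS array 3, LPS+DHA5HT array 1 or LPS+DHA5HT array 4 (0.05301 to 0.06793).

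Of the genes not called in this comparison without the block, Cd40 read 8.43, 8.43, 8.58 and 8.43 with both agents, against 8.69 to 8.86 with LPS. The difference was −0.31 (SE 0.09, CI −0.51 to −0.11, adjusted p = 0.1249), and −0.29 without LPS+DHA5HT array 1 or array 4. From arrays 1 to 4, the same-number differences were −0.26, −0.41, −0.28 and −0.27, and the blocked adjusted p was 0.04279, a call lost when any array but LPS array 4 or LPS+DHA5HT array 1 was left out. Icosl read 10.00, 10.18, 10.04 and 9.70, so that array 4 was the lowest and array 2 came close to the lowest LPS array at 10.22. The difference was −0.26 (CI −0.46 to −0.06, adjusted p = 0.1921; 0.1558 with the block), −0.27 without array 1 and −0.17 without array 4. With the block it was called only without LPS+DHA5HT array 2 (−0.36, adjusted p = 0.0344). Cd274 read 10.35, 10.94, 10.45 and 10.50, overlapping with the LPS arrays through array 2. Its difference of −0.38 (SE 0.14, CI −0.68 to −0.08, adjusted p = 0.2247) was larger than that of Cd86, and so was its standard error; it was −0.31 without array 1 and −0.36 without array 4. The same-number differences were all negative, at −0.34, −0.22, −0.38 and −0.57, and the blocked adjusted p was 0.03394, a call that LPS arrays 2, 3 and 4 and LPS+DHA5HT arrays 1 and 4 each removed when left out. Icam1 read 9.85, 10.03, 9.96 and 9.84 and differed by 0.06 (CI −0.11 to 0.23, adjusted p = 0.8048), and by 0.09 without array 1 or array 4. For Cd83 (−0.01), Pdcd1lg2 (0.12) and Vcam1 (0.06) both groups were below background.

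DHA5HT against control asks what DHA5HT did without LPS. None of the 9 genes was called (limma; 3 had an unadjusted p under 0.05), where 0.600% of all genes were called in either direction, and for each of the 9 the groups overlapped, unlike 5.89% of all genes. Arrays of the same number deviate together here too, and with the replicate block 0 of the 9 were called (Cd40 came closest, adjusted p = 0.07062), where 0.951% of all genes were. Cd40 read 6.08, 6.29, 6.42 and 6.51 with DHA5HT, below the control mean of 6.65 on every array, with a difference of −0.32 (CI −0.52 to −0.12, adjusted p = 0.2096). Without control array 1, the lowest control, the difference was −0.41 and passed the threshold (adjusted p = 0.0478). Cd274 read 7.80, 7.95, 7.50 and 7.94 and differed by −0.30 (CI −0.60 to −0.002, adjusted p = 0.5052). Icam1 read 9.25, 9.16, 9.49 and 9.22 and differed by −0.22 (CI −0.39 to −0.05, adjusted p = 0.3581). The point estimates of the CD28 ligands and Icosl were smaller. Cd80 read 7.41, 7.66, 7.31 and 7.81, on either side of the control mean of 7.46, and differed by 0.09 (CI −0.19 to 0.37). Cd86 read 8.26, 8.19, 8.19 and 8.25 and differed by −0.08 (CI −0.22 to 0.06). Icosl read 8.55, 8.50, 8.72 and 8.53 and differed by −0.05 (CI −0.25 to 0.15). Cd83 read 4.17, 4.35, 4.35 and 3.85 and differed by 0.20 (CI −0.05 to 0.46), while Pdcd1lg2 (0.11) and Vcam1 (0.09) were below background in each group.

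LPS+DHA5HT against DHA5HT gives the LPS response of cells that also had DHA5HT. The same 6 genes, Cd40, Cd80, Cd86, Icosl, Cd274 and Icam1, were called higher and Cd83 lower, where 12.4% of all genes were called higher and 15.7% lower. Cd274 again rose most, by 2.76 (6.79-fold, SE 0.14), followed by Cd40 at 2.14 (4.41-fold), Cd86 at 1.78 (3.42-fold), Cd80 at 1.72 (3.29-fold), Icosl at 1.41 (2.65-fold) and Icam1 at 0.64 (1.56-fold). In LPS cells without DHA5HT, Cd80 stood above Cd40 and Cd86 by the point estimate of its increase, and in cells with DHA5HT below them. Cd83 was lower by 1.47-fold with the background level in place of its LPS+DHA5HT mean (measured −0.61, SE 0.12, CI −0.86 to −0.35, limma adjusted p = 0.0008242). Its LPS+DHA5HT arrays read 3.32, 3.64, 3.66 and 3.68. All 7 calls were kept without array 1 and without array 4.

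The difference between the DHA5HT effects with and without LPS was tested directly, and it equals the difference between the LPS responses with and without DHA5HT. None of the 9 genes passed (limma; 3 had an unadjusted p under 0.05), where 0.329% of all genes did. Cd80 had the largest difference, −0.72 (SE 0.19, CI −1.12 to −0.32, adjusted p = 0.1844), −0.73 without LPS+DHA5HT array 1 and −0.65 without array 4. Cd86 had −0.25 (CI −0.44 to −0.05, adjusted p = 0.5203), and −0.25 and −0.21 without these arrays. Icam1 had a difference of opposite sign, 0.28 (CI 0.04 to 0.52, adjusted p = 0.5633), and 0.30 and 0.31 without them. For Cd40 the DHA5HT effect was −0.32 without LPS and −0.31 with it, a difference of 0.02 (CI −0.27 to 0.30; 0.03 without either array). For Cd274 the difference was −0.07 (CI −0.50 to 0.35), and −0.004 without array 1 and −0.05 without array 4. For Icosl it was −0.21, and −0.22 without array 1 and −0.12 without array 4. An effect of DHA5HT that depends on LPS was therefore not shown for any of the 9 at these adjusted p-values, although the intervals of Cd80, Cd86 and Icam1 leave out 0 before adjustment.

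**Figure D2:**
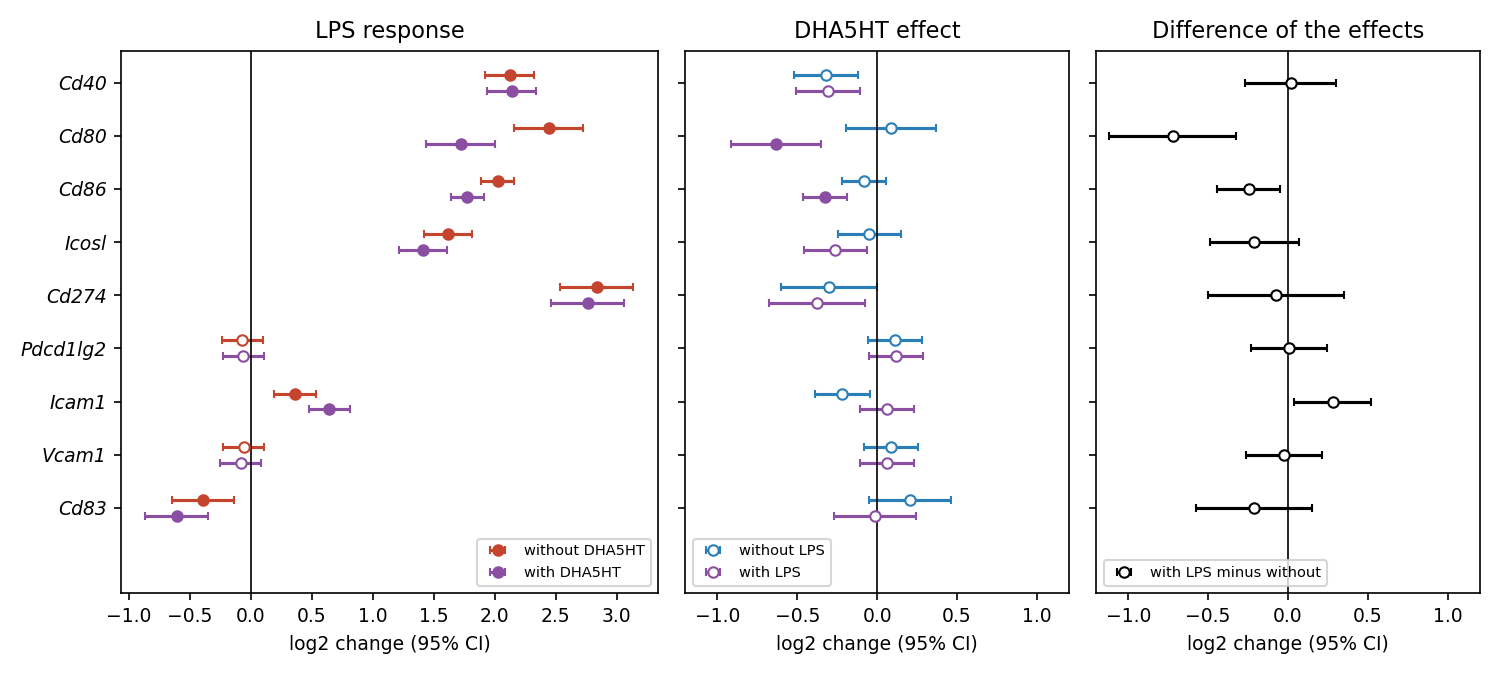
Log2 change of the 9 genes with 95% CI (horizontal axis), filled where the adjusted p is under 0.05 and open otherwise. The left panel shows the LPS response without and with DHA5HT, the middle panel the DHA5HT effect without and with LPS, and the right panel the difference between these effects; the Cd80 response is 2.44 without and 1.72 with DHA5HT.

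The receptors and integrins that bind these ligands were read in the same cells. The counts of these and the following lists stand beside 12.6% of all genes called higher and 15.8% lower with LPS. With DHA5HT in LPS-treated cells the shares were 0.818% higher and 0.972% lower. Counts with the replicate block in LPS-treated cells stand beside 1.72% higher and 1.72% lower. Of 13 genes, 4 rose with LPS, 3 fell and 6 were not called, with a median change of 0.02. Itgal, the integrin chain that binds ICAM1, rose by 1.63 (7.68 ± 0.14 to 9.31 ± 0.11, adjusted p = 4.224e-10). Its partner chain Itgb2 rose by 0.31 and Itgam, the alpha chain of a further ICAM1-binding integrin, by 0.30. Pdcd1, the receptor of both programmed death ligands, rose by 0.35 from 4.67 to 5.02 with overlapping arrays. Cd28, the receptor of CD80 and CD86 and usually a T cell gene, was at 8.71 ± 0.17 in control cells and fell to 6.97 ± 0.21 with LPS (−1.74, adjusted p = 6.994e-06). Icos fell by 0.43 on the log2 scale, from 4.69 to 4.26. Like Pdcd1, it lay within the range of markers of cell types that a macrophage line should lack. Itgb1, a chain of the VCAM1-binding integrin, fell by 0.18. The Itgb1 call was lost with the mean of its probe sets (−0.06, limma adjusted p = 0.4188) or with arrays centred on their medians (−0.14, 0.05577). Not called were Cd40lg and Ctla4, which lay below background in every group, and Rgmb, Itgax, Itga4 and Itgb7.

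With DHA5HT in LPS-treated cells, 1 of these 13 was called. Itgal was lower by 0.44 on the log2 scale (8.87 ± 0.12 against 9.31 ± 0.11, adjusted p = 0.02523), a call lost without LPS array 3, LPS array 4, LPS+DHA5HT array 1 or LPS+DHA5HT array 4, and with the compared arrays alone. Its change was −0.48 to −0.38 with each array left out in turn. Pdcd1 read −0.33 (adjusted p = 0.09116), and Cd28 0.58 (adjusted p = 0.23), with a wide spread among the LPS+DHA5HT arrays (SD 0.56). The median over the 13 was −0.12.

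Among 27 other co-signalling molecules of antigen-presenting cells, 11 rose with LPS, 3 fell and 13 were not called, a median of 0.07. Tnfsf15, a TNF family ligand that co-stimulates T cells, rose by 1.91 (6.25 ± 0.13 to 8.16 ± 0.22, adjusted p = 6.897e-10). Slamf7, a self-binding receptor of the SLAM family, rose by 1.91 from a level close to background (3.69 ± 0.20), and Nectin2, an adhesion ligand of T and NK cell receptors, rose by 0.79. With DHA5HT in LPS-treated cells 2 of the 27 were called, each lower. Tnfsf15 was at 7.24 ± 0.15, a change of −0.92 (SE 0.11, adjusted p = 0.0004891) whose call was kept with each array left out. Slamf7 was at 4.90 ± 0.30, a change of −0.70 (adjusted p = 0.0237) whose call was lost without LPS array 2, LPS+DHA5HT array 1 or LPS+DHA5HT array 3 and with the compared arrays alone. With the replicate block Tnfrsf14, which encodes the receptor HVEM, was called too (−0.22, limma adjusted p = 0.03584 against 0.2321), so that 3 of the 27 were lower.

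Of 21 measured adhesion molecules of the immunoglobulin, selectin and sialomucin families other than Icam1 and Vcam1, 3 rose and 3 fell with LPS. Pecam1, which mediates contact among leukocytes and endothelium, rose by 1.36 (4.18 ± 0.18 to 5.54 ± 0.13). Its control level lay within the range of markers of cell types that a macrophage line should lack. The sialomucin Cd164 rose by 0.62. Cadm1, an immunoglobulin family adhesion molecule, fell by 1.25 on the log2 scale, from 9.99 ± 0.05 to 8.74 ± 0.07. With DHA5HT in LPS-treated cells 2 of the 21 were lower. Pecam1 was at 4.72 ± 0.13, a change of −0.82 (SE 0.10, adjusted p = 0.0001924), and F11r, a junctional adhesion molecule, was at 5.90 ± 0.38 against 6.84 ± 0.16, a change of −0.93 (adjusted p = 0.006769). Both calls were kept with each array left out. For Pecam1 the DHA5HT effect also differed with and without LPS (−0.99, SE 0.13, adjusted p = 0.002277).

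Of 15 measured genes of CD40 signalling and NF-kB, 7 rose with LPS, 1 fell and 7 were not called, a median of 0.09. Rel, an NF-kB subunit, rose by 1.30, the adaptor Traf1 by 1.23 and Nfkbia, the NF-kB inhibitor, by 1.56. With DHA5HT in LPS-treated cells the median was −0.20. Of the 15, 8 had an unadjusted p under 0.05 (limma), a count without the share of all genes beside it. A single gene was called. Rel was lower by 0.29 on the log2 scale (10.45 ± 0.08 against 10.74 ± 0.07, adjusted p = 0.03852), and this call was lost with any of the 8 compared arrays left out (adjusted p of 0.05018 to 0.1198), with array weights or with the compared arrays alone. With the replicate block the subunit gene Nfkb2 was called too (−0.29, adjusted p = 0.03322 against 0.07948). Among 14 measured genes of MHC class II presentation, 2 rose and 3 fell. H2-Oa, a chain of an inhibitor of peptide loading, rose by 0.55 and the invariant chain gene Cd74 by 0.36. H2-DMa, a chain of the peptide loading catalyst, fell by 0.23 on the log2 scale, a call lost after arrays were centred on their medians (adjusted p = 0.07991) or quantile normalized again (0.1001) and without control array 2, control array 3, LPS array 1 or LPS array 4. H2-Oa was lower with DHA5HT in LPS-treated cells by 0.45 on the log2 scale (adjusted p = 0.02784), a call lost without LPS array 2, LPS array 4, LPS+DHA5HT array 1 or LPS+DHA5HT array 4 and with the compared arrays alone.

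Of 16 measured genes of interferon signalling that act on Cd274 and Cd40, 9 rose with LPS and 2 fell, with a median of 0.20. The signalling suppressors Socs3 and Socs1 rose by 5.18 and 1.98 and the kinase gene Jak2 by 2.33. None of the 16 was called with DHA5HT in LPS-treated cells (limma), and their median was −0.17. Of the 16, 7 had an unadjusted p under 0.05 (limma), again without the share of all genes. With the replicate block 1 was called, the transcription factor gene Stat3 (−0.25, limma adjusted p = 0.04453 against 0.05071). Of 7 measured genes that set how long these ligands stay on the surface, 2 rose with LPS and 3 fell. The protease gene Mmp9 rose by 2.60, and the sheddase genes Adam17 and Adam10 fell by 0.47 and 0.41 on the log2 scale. None of these 7 was called with DHA5HT in LPS-treated cells (limma; 0 had an unadjusted p under 0.05).

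**Figure D3:**
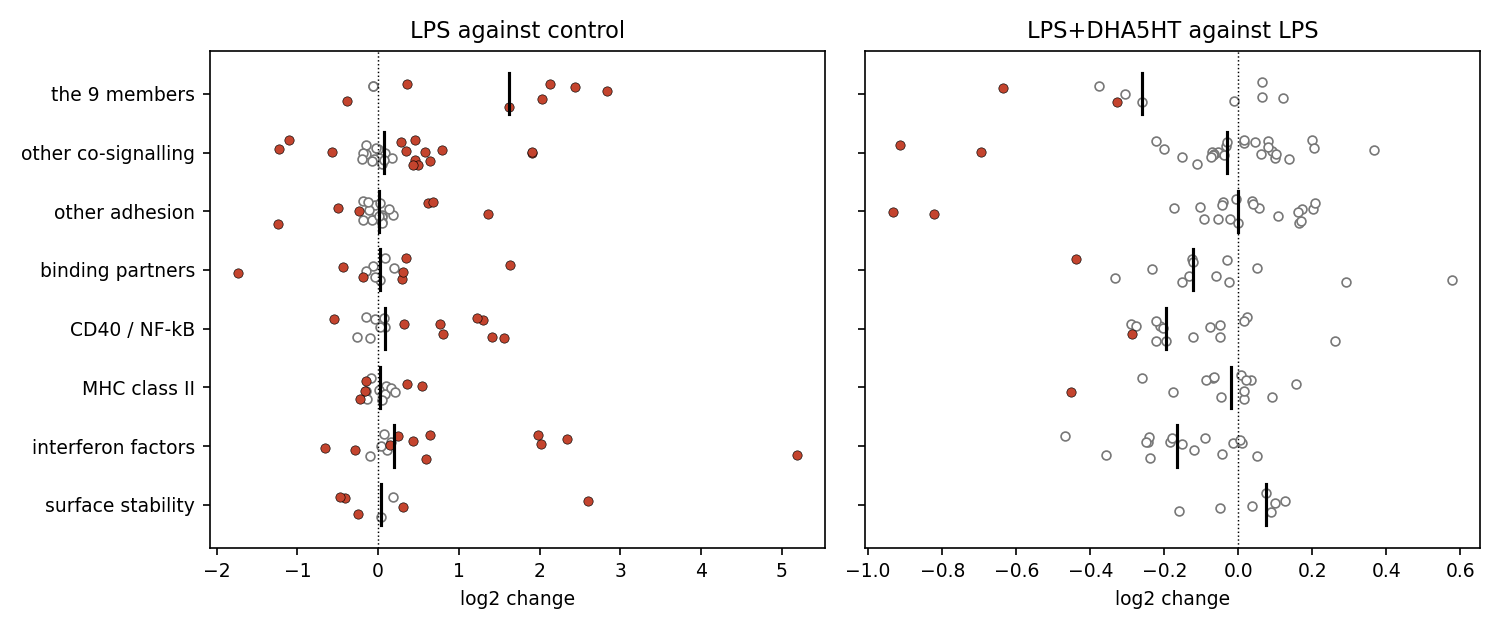
Log2 change of each measured gene of the 9 listed genes and of 7 related lists (points, filled where the adjusted p is under 0.05), with each list's median as a black bar, for LPS against control on the left and LPS+DHA5HT against LPS on the right. The median of the 9 is 1.62 on the left and −0.26 on the right, and the medians of the other lists run from 0.02 to 0.20 on the left and from −0.20 (CD40 signalling and NF-kB) to 0.07 (surface stability) on the right.

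The genes whose levels over the 16 arrays were most like each of the 9 are given by Pearson r as a description; the 16 arrays share 4 conditions, so any gene with a strong LPS response scores high. Cd40 was most like Nfkbiz (0.997), Ccl5 and Zc3h12a (0.993 each). Cd86 was most like the cytokine genes Il6 (0.996), Osm and Il1b (0.995 each), and Cd80 was most like Pwp1, Csf3 (0.988 each) and Inhba (0.987). Cd274 was most like Il1rn, Cflar (0.993 each) and Gbp2 (0.992), and Icosl was most like Peli1, Ms4a6c and Dgkh (0.994 each). Icam1 was most like Rnf19b (0.956), Maff (0.955) and Psme2 (0.953). The 3 genes near background had weaker matches. Cd83 was most like Hoxc6 (0.937), Sos1 (0.927) and Btk (0.920), Pdcd1lg2 was most like Wbp2nl (0.840), Upp2 (0.790) and Nxnl1 (0.770), and Vcam1 was most like Gskip (0.811), Rcn3 (0.754) and Timm21 (0.747).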

How the data were processed

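RNA of RAW264.7 cells was labelled with biotin and hybridised to Affymetrix whole-transcript arrays, per the labels' protocols. The deposited values are log2 intensities from RMA, per the submitters' processing notes; its version, the annotation and any filter are not given in the sources used here. Array medians lay between 4.58 and 4.67, and the number of arrays limits the precision. Of 35556 probe sets, 21218 named 1 gene, 1881 several and 12457 none in the array's gene table. The brightest probe set per gene left 18820 genes.

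Groups followed the sample titles. The 4 group means were fitted over all 16 arrays with lmFit and eBayes of limma 3.58.1 (R 4.3.3), which leaves 12 residual degrees of freedom, and tests were two-sided. In each of 5 comparisons p was adjusted over all 18820 genes by Benjamini-Hochberg, with a threshold of 0.05. The procedure was run on simulated arrays whose noise was independent, without a shared deviation of same-numbered arrays. That run therefore does not bear on pairing. The labels' array numbers were checked for pairing after group means were removed. Same-numbered arrays correlated by 0.116 to 0.205 in LPS+DHA5HT against LPS and by 0.131 to 0.183 in DHA5HT against control, each of 4 pairs over 0.1, so in these comparisons a fit with the replicate number as a block is given where it changes a call. In LPS against control (0.0995 to 0.131) and LPS+DHA5HT against DHA5HT (0.0699 to 0.232) 3 of 4 pairs were over 0.1 and no pairing was taken. Across all groups, an array's best match in another group had its own number in 42 of 48 cases. The shared deviation is thus not confined to the comparisons for which the block is given. The pairing rests on these correlations alone. A fold against a mean below the background level uses that level. The 9 genes and the lists were chosen with earlier results of these data known.

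Named genes were the 9, up to 3 called genes per list of smallest p in LPS against control and in LPS+DHA5HT against LPS, all genes that bind the 9, and the 3 genes most like each (predicted genes, small RNAs and smell and pheromone receptors left out). Alternative settings comprised the replicate block, a trend of the prior variance with intensity, a filter on dim genes, quantile normalization again, median centring, the mean of all probe sets, array weights, the compared arrays alone, other thresholds, each array left out, the other Cd80 probe set, and the block with each compared array left out (both chosen after seeing the data). Python 3.11.15 with matplotlib 3.10.9 drew the figures. Protein sequences were not used here.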

Additional observations from a re-analysis of the deposited data

Results flagged for a closer look

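In each gene and group the most distant of the 4 arrays was compared with the range of the group, and 2 of 36 sets had a gap beyond Dixon's critical value for 4 samples; chance alone flags about 1 set in 20. Cd40 on LPS+DHA5HT array 3 read 8.58, where the other 3 arrays of that group read 8.43 each, a gap of 0.987 of the range. Cd83 on LPS+DHA5HT array 1 read 3.32, where the other 3 read 3.64 to 3.68, a gap of 0.885 of the range. The second is the array whose title and treatment label disagree, and all 4 of these Cd83 values lie near or below the background level of 3.63, apart by less than the spread of Cd83 among the LPS arrays (3.28 to 3.82).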

How the results depend on the processing

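Of 45 pairs of a gene of the 9 and a comparison, 16 were called and 13 of these kept the call and the direction under every setting; the others are Cd83 with LPS and Cd80 and Cd86 with DHA5HT in LPS-treated cells. Of 29 uncalled pairs, 18 stayed uncalled with the same sign. With the replicate block, LPS+DHA5HT against LPS called 647 genes in place of 337 and 4 of the 9 in place of 2, DHA5HT against control called 179 in place of 113, and the difference between DHA5HT effects 96 in place of 62; beyond the calls given beside the results, the block changed no other call of the 9 genes in any comparison. Over all groups 19 of 24 same-numbered pairs and 5 of 72 pairs of different numbers correlated by over 0.1. The difference was not treated as paired, although it contrasts comparisons for which the block is given. With the block the Cd80 difference was still not called (limma adjusted p = 0.06554 against 0.1844). In LPS+DHA5HT against LPS, a threshold of 0.01 left 81 genes and 0 of the 9, one of 0.1 gave 619 genes, a filter on dim genes 557, and the compared arrays alone 86 genes and 1 of the 9; a threshold of 0.01 left 28 genes in the difference. With arrays left out in turn, LPS against control called 4844 to 5081 genes (5346 in all) and 6 to 7 of the 9, LPS+DHA5HT against LPS 143 to 289 and 0 to 2, DHA5HT against control 83 to 116 and 0 to 1, LPS+DHA5HT against DHA5HT 4741 to 5003 (5285 in all), and the difference 34 to 62 and 0. Signs turned for small changes only: Cd83 in LPS+DHA5HT against LPS with array weights (0.00143) and with arrays left out (−0.113 to 0.0748), and the Pdcd1lg2 difference after centring (−0.00071). With arrays left out, Vcam1 with LPS ran from −0.123 to 0.0130 and Cd80 with DHA5HT alone from −0.00483 to 0.172, and the difference ran from −0.0647 to 0.104 for Cd40, −0.202 to 0.0134 for Cd274, −0.0600 to 0.0645 for Pdcd1lg2 and −0.0962 to 0.0402 for Vcam1. Centring moved the split of LPS calls from 2376 higher and 2970 lower to 3043 and 2468, that of LPS+DHA5HT against LPS from 154 and 183 to 110 and 216, and that of LPS+DHA5HT against DHA5HT from 2333 and 2952 to 2800 and 2478. Cd83, Pdcd1lg2 and Vcam1 are dropped by the filter on dim genes. The cause of these shifts was not tested.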

Other observations

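DHA5HT without LPS called none of the 9 genes, but it called 6 genes of the related lists, named here after their values were seen. They were 2 of 16 interferon genes, 2 of 15 of CD40 signalling and NF-kB, 1 of 27 co-signalling and 1 of 14 MHC class II genes. None of the 21 adhesion, 13 binding and 7 surface stability genes was called. Of all genes 0.600% were called in this comparison. Irf7, a transcription factor of the interferon response, fell by 2.21 on the log2 scale (SE 0.17, limma adjusted p = 2.021e-06), and Irf9, a subunit of the interferon-activated transcription factor complex, fell by 0.75. The NF-kB regulator gene Tnfaip3 fell by 0.65 on the log2 scale, the adaptor gene Traf1 by 0.43 and Lgals9, which encodes a galectin that acts on T cells, by 0.85. H2-Eb2, an MHC class II gene, was called with a difference of 0.31 (adjusted p = 0.03093) between means of 3.04 and 3.35, neither above background, and the call was lost without 5 of the 8 compared arrays. The other 5 calls were kept with each array left out. With the replicate block Stat2, a further subunit of that complex, was called as well (−0.50, limma adjusted p = 0.01142 against 0.1633), where 0.951% of all genes were.

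In LPS-treated cells the same genes were not called lower with DHA5HT. The difference between the effects was itself called for 3 of them, where it was called for 0.329% of all genes. For Irf7 it was 2.03 (SE 0.24, adjusted p = 0.0008838), a call kept with every array left out in turn. For Lgals9 it was 0.87 (adjusted p = 0.03214), a call lost without 9 of the 16 arrays, and for Irf9 0.63 (adjusted p = 0.0434), a call lost without 12 of the 16, after quantile normalization again (0.05122), after median centring (0.05993) and with array weights (0.06335). With the replicate block Slamf7 was called for this difference too (−0.72, limma adjusted p = 0.03295 against 0.2607), where 0.510% of all genes were.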
